A study of Musca domestica with 8 samples.

Results

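The 200 contigs described here are those of the housefly (*Musca domestica*) 791spin assembly that ranked highest when the lowest level in samples No.2, No.4, No.6 and No.8 was divided by the highest level in No.1, No.3, No.5 and No.7. They were chosen by these measured values, so their higher levels in the even-numbered samples restate the choice and carry no test. Levels are in CPM, the reads counted on a contig per 1000000 reads counted in that sample. A contig was ranked when its annotation did not contain yolk, vitell or chorion and it had at least 2 CPM in each even-numbered sample, and 0.5 CPM was added to the odd-numbered level before the division. Of 35834 contigs, 30516 had such an annotation and 11107 were ranked.

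All 8 samples carry a single condition, adult flies of the strain 791spin, which was selected with the insecticide spinosad from the multi-resistant strain 791a. Each is labelled as whole flies of 5 to 7 days with males and females pooled, at about 60 flies in an extraction. The study describes a single cDNA library normalized to lower abundant transcripts. Each sample here holds more counts than the reads reported for that library, so the counts cannot be those reads alone. Whether the counted samples were normalized in this way is not stated. The labels give no difference between even-numbered and odd-numbered samples, no sample is labelled as a susceptible strain, and nothing says that samples came from separate cultures. The samples are therefore set side by side one by one. In whole flies, more cells of a type and more RNA per cell cannot be told apart.

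A female fly loads each egg with RNA and protein made by nurse cells in the ovary, and this maternal store carries the embryo through its earliest nuclear divisions, before its own genes are transcribed. The store holds RNAs that set the body axes and large amounts of histones, replication proteins and ribosome parts. The fat body, the counterpart of liver and adipose tissue, makes yolk proteins and secretes them into the blood of the female.

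Among the even-numbered samples, No.2 and No.6 stood apart on these contigs. No.2 had the highest level of the even-numbered samples for 154 of the 200 contigs (77%), compared with 39.5% of all 11107 ranked contigs. No.6 had the lowest of these levels for 154 contigs (77%), compared with 28.7% of all ranked contigs. Since the ranking used the lowest of these 4 values, No.6 decided most ranking values, while the level in No.2 hardly entered. Total counts were between 10266664 in No.6 and 16115208 in No.1, so that 3 counts, taken here as the limit that a count of 0 allows, correspond to 0.186 to 0.292 CPM. Intervals and limits cover counting error only.

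Few of the contigs were close to absent from the odd-numbered samples. The ranking value fell from 24.8 at rank 1 to 1.64 at rank 200, with a median of 2.14. It was at least 10 for 9 contigs, between 5 and 10 for 22, between 3 and 5 for 31, between 2 and 3 for 51 and below 2 for 87. The highest odd-numbered level was under 1 CPM for 66 contigs and at least 10 CPM for 34, and 2 contigs had no counts in any odd-numbered sample. All 200 lay higher in every even-numbered than in every odd-numbered sample, as did 10.9% of the ranked contigs, so the list is the upper end of a larger set. The description as contigs nearly confined to even-numbered samples therefore holds for the highest ranks and not for the list as a whole.

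**Figure D1:**
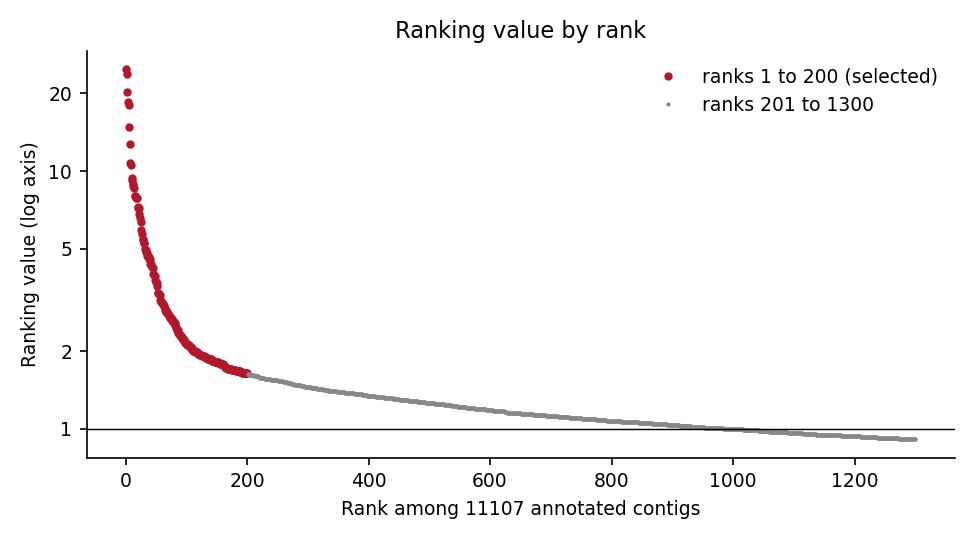
Ranking value on a log axis against rank for the highest of the 11107 ranked contigs, with the 200 selected contigs in red and a line at 1. The value drops from 24.8 to 3.72 over the first 50 ranks and passes rank 200 at 1.64 without a step.

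No gap separated the list from the contigs outside it. The last 3 inside were M_dom_rep_c8259 (GG15735), M_dom_c1675 (CG7182) and M_dom_c2937 (GF20778), each with a ranking value of 1.64. The 3 next were M_dom_c1098, annotated as a DNA-directed RNA polymerase subunit with 1.64, M_dom_rep_c6243 (GF11903) with 1.63 and M_dom_rep_c5769 (GJ14594) with 1.63. Codes such as GG15735 are gene models of other fly species and are given here without a name or role.

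The summed level of the 200 contigs was 5597, 7138, 6803 and 7160 CPM in No.1, No.3, No.5 and No.7, and 30112, 27067, 17531 and 19575 CPM in No.2, No.4, No.6 and No.8. In shares of all counts this was 0.56% to 0.716% in the odd-numbered and 1.75% to 3.01% in the even-numbered samples. A few abundant contigs carried most of it, with 74.5% of the summed even-numbered level on 10 contigs. The median contig had 0.993, 1.53, 1.15 and 1.21 CPM in No.1, No.3, No.5 and No.7, and 36.8, 12.4, 7.74 and 15.3 CPM in No.2, No.4, No.6 and No.8. The odd-numbered medians lay close to each other, whereas the even-numbered ones spread from 7.74 to 36.8 CPM.

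**Figure D2:**
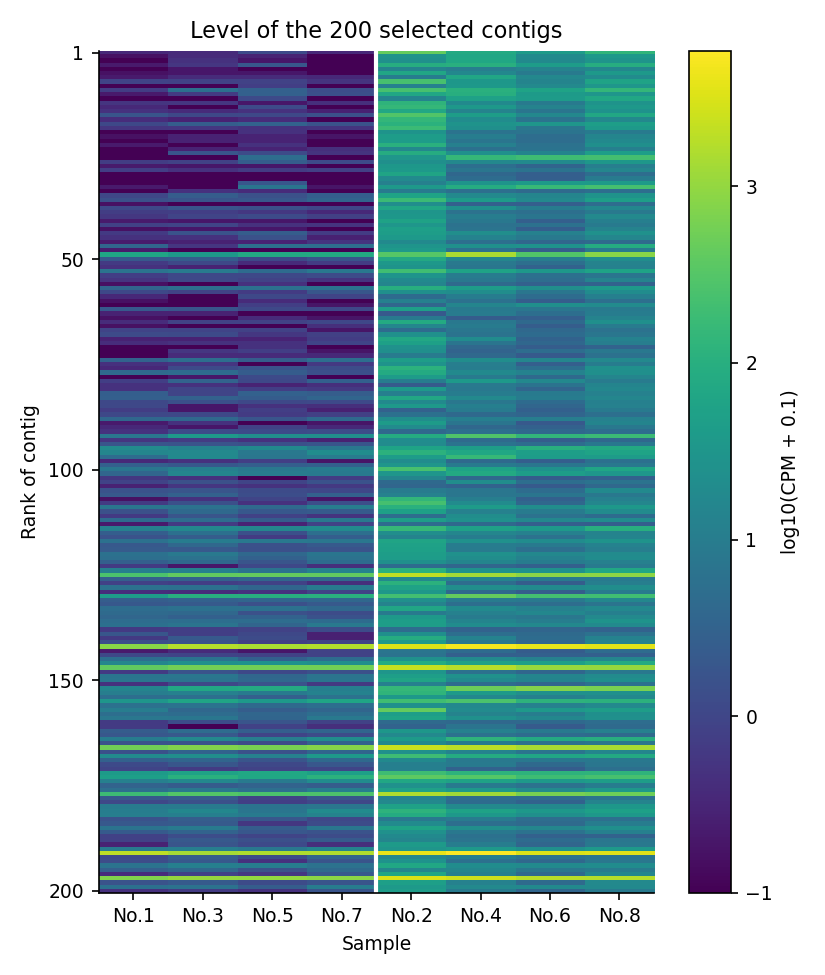
Level of each of the 200 selected contigs in each sample as log10(CPM + 0.1), with odd-numbered samples left of the white line, even-numbered right of it and the contig of rank 1 on top. The darkest cells, at 0 counts, gather in the upper 100 ranks of the odd-numbered samples, and the bright rows below rank 100 are abundant contigs that are also well expressed in the odd-numbered samples.

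The 20 contigs ranked highest included 5 of HMG-D, described below with its other contigs, dUTPase and *neverland*. Of the rest, 9 had a gene code alone. Among these, M_dom_rep_c11919 (GH15525, rank 6) had 0.0621, 0.0958, 0.0961 and 0 CPM in No.1, No.3, No.5 and No.7, and 65.4, 15.9, 8.86 and 36.3 CPM in No.2, No.4, No.6 and No.8. M_dom_rep_c11939 (GK16627, rank 10) had 0.621, 5.65, 2.88 and 1.29 CPM in the same odd-numbered samples, and 243, 106, 57.8 and 141 CPM in the same even-numbered samples. Both were highest in No.2 and lowest of the even-numbered samples in No.6, as were M_dom_rep_c11851 (GK25315), M_dom_rep_c5464 (GE11834) and the contig of rank 1. The remaining gene-code contigs of the 20 did not follow this. M_dom_rep_c6878 (GG11170, rank 11) had 70.1, 96.2, 38.7 and 32.3 CPM in No.2, No.4, No.6 and No.8. M_dom_c2890 (GF21976, rank 7) and M_dom_rep_c20684 (GA20580, rank 9) were highest in No.4 and lowest of the even-numbered samples in No.2. M_dom_rep_c12401 (GF21595, rank 20) was highest in No.2 but lowest of the even-numbered samples in No.4. M_dom_rep_c5581 (rank 3, matched to a methanogen protein) and M_dom_rep_c16119 (rank 4, matched to an *Acinetobacter* protein) were highest in No.4, at 68.2 and 102 CPM.

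The RNAs that set the embryonic axes were represented by *bicoid* and *nanos*. Bicoid, deposited as RNA at the anterior pole of the egg, is a homeodomain protein that patterns the head and thorax. The contig annotated as bicoid protein of *M. domestica* (M_dom_rep_c12971, 2510 bp, rank 22) had 0, 0.192, 0.192 and 0 CPM in No.1, No.3, No.5 and No.7, and 42.7, 6.98, 4.97 and 18.1 CPM in No.2, No.4, No.6 and No.8. The odd-numbered samples together held 4 of its counts and the even-numbered 942. The samples did not overlap, and No.2 was 8.59 times No.6.

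Nanos represses translation at the posterior pole and is needed in germ cells. Its contig (M_dom_rep_c14481, 1623 bp, rank 69) had 0.186, 0.192, 0.192 and 0.603 CPM in No.1, No.3, No.5 and No.7, and 73.2, 20.5, 3.12 and 13.1 CPM in No.2, No.4, No.6 and No.8. The spread among the even-numbered samples, 23.5 times, was larger than the step from No.7 to No.6, which was 5.17 times. The 5 other contigs with the same annotation did not enter the list. Summed, they had 19.5, 5.47, 1.36 and 6.47 CPM in No.2, No.4, No.6 and No.8, with at most 0.603 CPM in an odd-numbered sample, so No.2 was again highest and No.6 lowest of the even-numbered samples. The most counted of them, M_dom_rep_c11779, had 1.17 CPM in No.6 and failed the floor of 2 CPM there.

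Maternal regulators of the early divisions were *deadhead* and *plutonium*, both named from *Drosophila*. Deadhead is a thioredoxin of the female germline that acts on the sperm chromatin at fertilization. Its contig (M_dom_c1388, 576 bp, rank 30) had no counts in any odd-numbered sample, and 59.7, 3.77, 2.63 and 4.92 CPM in No.2, No.4, No.6 and No.8. No.6, the lowest of these, was at least 9.12-fold higher than the odd-numbered samples, taking 3 counts in No.5 as the limit that their 0 counts allow. Of its 985 counts, 864 came from No.2. The other contig at 0 in all odd-numbered samples was M_dom_rep_c15650 (GI21425, rank 31, named after its values were seen) with 18.9 and 2.63 CPM in No.2 and No.6.

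Plutonium is a regulator of DNA replication in the egg. Its contig (M_dom_rep_c7419, 903 bp, rank 25) had 0, 1.72, 1.15 and 0.43 CPM in No.1, No.3, No.5 and No.7, and 89.6, 24.6, 14.1 and 46.9 CPM in No.2, No.4, No.6 and No.8. Here No.8 was the nearest to No.2, as for *bicoid*.

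Of the list of oocyte and germ plasm genes searched by name, 18 contigs had a mean of at least 2 CPM. Of these 7 lay higher in every even-numbered sample, none lay lower in all, and 11 overlapped, with 4 contigs among the 200. Over all 14755 annotated contigs with a mean of at least 2 CPM, 9.14% lay higher in every even-numbered sample and 6% lower. Contigs of the list that stayed outside included *maelstrom*, which acts in the piRNA pathway, with 21.3, 12.1 and 14 CPM in No.2, No.6 and No.3 for M_dom_rep_c7072. A second *maelstrom* contig, M_dom_rep_c6402, failed the floor, with 4.07, 1.13, 0.39 and 0.0911 CPM in No.2, No.4, No.6 and No.8. It had 1 count in all odd-numbered samples. The *staufen* contig M_dom_c3347 was highest in No.3, at 5.17 CPM, with 1.86 to 4.1 CPM in the even-numbered samples. The CUGBP1/BrUNO contig M_dom_rep_c17143 was also highest in No.3, at 9.01 CPM, with 1.73 to 5 CPM in the even-numbered samples. Another contig of that name, M_dom_rep_c12760, lay higher in every even-numbered sample, with 47.7 and 34.2 CPM in No.6 and No.3. No follicle cell or eggshell contig of the searched names was in the list, and all 9 with a mean of at least 2 CPM overlapped.

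**Figure D3:**
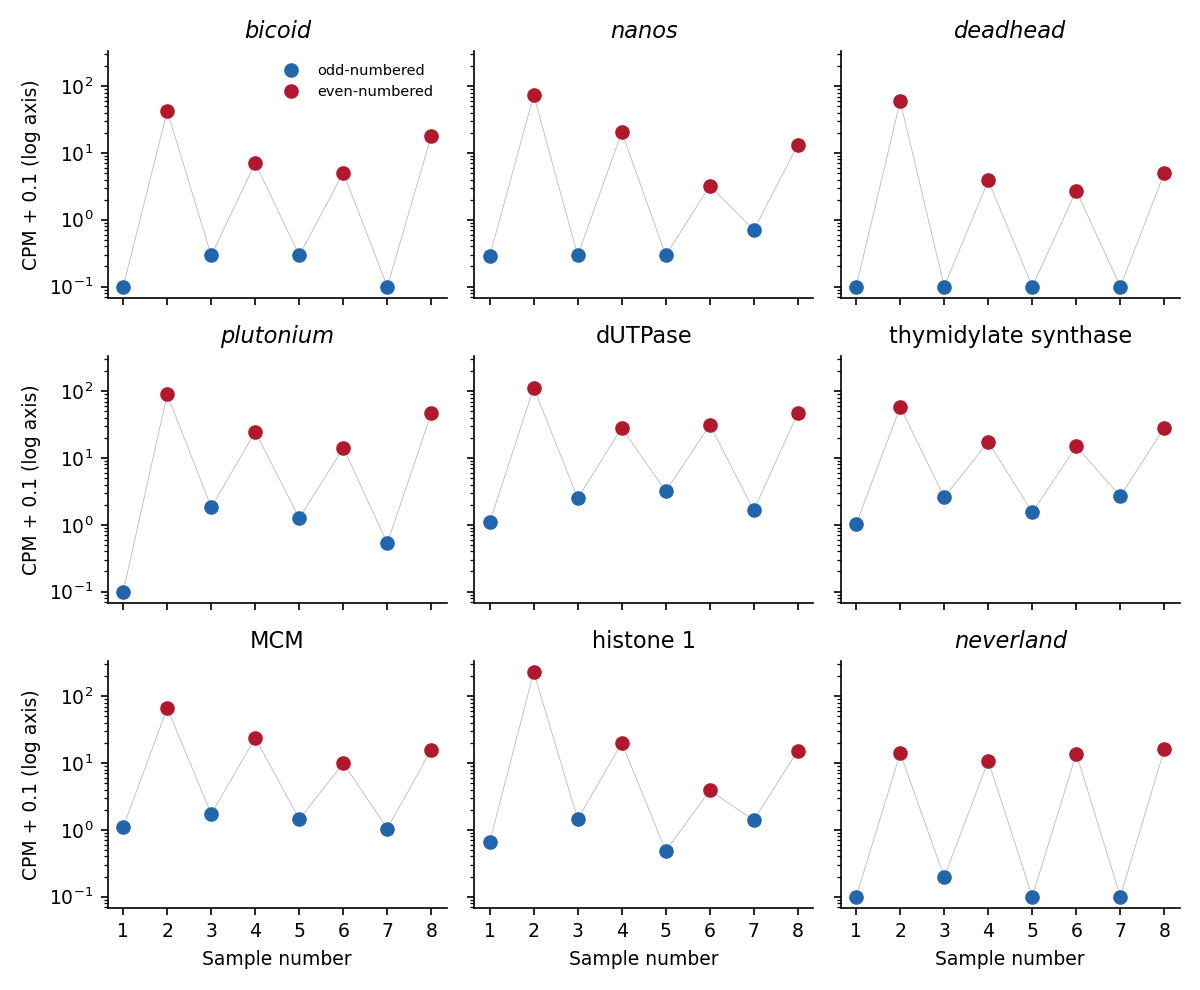
Level of 9 selected contigs in each of the 8 samples as CPM + 0.1 on a log axis, with odd-numbered samples in blue and even-numbered in red. In 8 of the panels No.2 is the highest point, and in the panel of *neverland* the even-numbered samples lie together between 10.8 and 16 CPM.

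The second group by role consisted of enzymes and proteins of DNA synthesis. The enzyme dUTPase removes dUTP and supplies the precursor of dTMP, and thymidylate synthase makes dTMP from it. The dUTPase contig (M_dom_rep_c7339, rank 18) had 0.993, 2.4, 3.08 and 1.55 CPM in No.1, No.3, No.5 and No.7, and 113, 28.2, 31.3 and 47.1 CPM in No.2, No.4, No.6 and No.8. The thymidylate synthase contig (M_dom_rep_c14477, rank 35) had 0.931, 2.49, 1.44 and 2.58 CPM in No.1, No.3, No.5 and No.7, and 57.9, 17.4, 14.8 and 28.4 CPM in No.2, No.4, No.6 and No.8. Both enzymes had nearly the same ratio of highest to lowest even-numbered level, 3.99 and 3.91, with No.2 highest and No.8 next.

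The contig annotated as replication factors MCM (M_dom_c5320, rank 38), part of the helicase that opens DNA at replication origins, had 66.5, 23.8, 9.84 and 15.9 CPM in No.2, No.4, No.6 and No.8, with 0.947 to 1.63 CPM in the odd-numbered samples. The medium subunit of replication protein A (M_dom_rep_c6205, rank 133), which coats single-stranded DNA, had 67.3, 19.2, 12.2 and 16.6 CPM in No.2, No.4, No.6 and No.8, but 4.05 to 5.96 CPM in the odd-numbered samples. The difference between these contigs lay in the odd-numbered samples, while their levels in the even-numbered ones were close.

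Among cell cycle names, *zw10*, a kinetochore protein of the checkpoint that delays chromosome separation, and the kinase CDK4/6, a partner of cyclin D, were in the list. The *zw10* contig (M_dom_rep_c6035, rank 42) had 31.2 CPM in No.2 and 5.94 to 9.21 CPM in No.4, No.6 and No.8, with 0.385 to 0.862 CPM in the odd-numbered samples. The CDK4/6 contig (M_dom_rep_c13127, rank 55) had 17.8 CPM in No.2 and 4.87 to 13.4 CPM in the other even-numbered samples, with 0.43 to 0.958 CPM in the odd-numbered samples. Another contig named zw10, M_dom_c1223, was more abundant in the odd-numbered samples, with 10.9 to 19.3 CPM, and overlapped, with 15 and 64.8 CPM in No.6 and No.2.

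The searched lists showed how far these names extended. Of 39 DNA replication and repair contigs with a mean of at least 2 CPM, 12 (30.8%) lay higher and 2 (5.13%) lower in every even-numbered sample. Of these, 3 were in the list. Of 37 cell cycle contigs 8 (21.6%) lay higher and 2 (5.41%) lower, and 2 were in the list. For histones and chromatin these numbers were 74 contigs, 27 (36.5%) higher, 1 (1.35%) lower and 5 in the list. Over all annotated contigs 9.14% lay higher and 6% lower, so the lower shares for replication and cell cycle were near that of all. Together the 3 lists held 10 of the 200 contigs, a share of 5% (95% Wilson interval 2.74% to 8.96%), and 1.01% of all ranked contigs. The ranking chose the 200 on the same values, so the shares are a description.

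Histones package DNA and are stored by the egg in bulk. Of the 5 contigs with the largest spread among the even-numbered samples, 4 were histones. A histone 1 contig, the linker between nucleosomes (M_dom_rep_c17026, rank 108), had 0.558, 1.34, 0.385 and 1.29 CPM in No.1, No.3, No.5 and No.7, and 230, 19.9, 3.8 and 15.3 CPM in No.2, No.4, No.6 and No.8. Its ratio of highest to lowest even-numbered level, 60.7, was the largest of the 200. The 4 next were the other histone 1 contig M_dom_rep_c34752 with 47.9, the histone H3.3 contig M_dom_c486 with 45.5, *nanos* with 23.5 and the histone H2A-like contig M_dom_rep_c29175 with 22.9.

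The H2A-like contig had 444, 44.9, 36.3 and 19.4 CPM in No.2, No.8, No.6 and No.4. In the odd-numbered samples it had 10.4 CPM in No.1 and 2.5 to 3.74 CPM in the others. No.1 was also the odd-numbered sample with the most counts on a second H2A-like contig that was not chosen, M_dom_rep_c8785, with 29 CPM, compared with 1044 CPM in No.2. This pair of contigs kept almost the same profile at a different level. Of 13 core and linker histone contigs with a mean of at least 2 CPM, 7 (53.8%) lay higher in every even-numbered sample and none lower. The shares of all annotated contigs were 9.14% and 6%, and 4 of the 7 were in the list by the choice itself. The 6 that overlapped included M_dom_rep_c5688, annotated as histone H3.3-like, with 20.2 and 33.2 CPM in No.2 and No.3. This grouping, like those of HMG-D, decondensation factor 31, antigen 5 and ribosomal proteins, was made after the values were seen.

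High mobility group protein D (HMG-D) bends DNA, and in *Drosophila* it takes the place of linker histone in the chromatin of the early embryo. It was the most frequent descriptive name, on 8 of the 200 contigs, at ranks 8, 13, 15, 16, 19, 43, 48 and 89. The contig with the most counts, M_dom_rep_c15723, had 1.61, 0.958, 0.961 and 1.38 CPM in No.1, No.3, No.5 and No.7, and 299.5, 45.8, 16.9 and 72.1 CPM in No.2, No.4, No.6 and No.8. All 8 contigs followed the order No.2, No.8, No.4, No.6. The contigs are between 293 and 972 bp long and match a single *Glossina* protein, so they are not counted here as separate genes.

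The other 6 HMG-D contigs, of which 4 carry the annotation of the chosen ones, had other profiles. The 8 chosen contigs summed to 3.97, 3.45, 2.69 and 2.84 CPM in No.1, No.3, No.5 and No.7, and 1039, 154, 61.3 and 257 CPM in No.2, No.4, No.6 and No.8. The 6 others summed to 283, 423, 268 and 246 CPM in No.1, No.3, No.5 and No.7, and 202, 304, 377 and 425 CPM in No.2, No.4, No.6 and No.8. No.2 was thus the highest sample in the sum of the chosen contigs and the lowest in the sum of the others. Singly, No.2 was the lowest sample on M_dom_rep_c7331 and M_dom_c22941 only. On the 4 with the annotation of the chosen ones, No.2 was the lowest even-numbered sample but lay above No.1, No.5 and No.7. For M_dom_rep_c5496 these levels were 72.2 CPM in No.2 and 40, 37.8 and 33.8 CPM in No.1, No.5 and No.7. Over all 14 contigs the even-numbered samples still lay above the odd-numbered, but only just, with 438 and 427 CPM in No.6 and No.3. Among the 6, M_dom_rep_c7331, the longest HMG-D contig at 1318 bp, had 111, 29.6, 134 and 73.9 CPM in No.1, No.2, No.3 and No.4.

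Decondensation factor 31, a chromatin protein that keeps DNA accessible, was named on 12 contigs with 4 in the list. The 4 summed to 162, 72.8, 51.3 and 72.3 CPM in No.2, No.4, No.6 and No.8, and to 12.1 to 24 CPM in the odd-numbered samples. The 8 others had nearly the same ratio of No.2 to the geometric mean of No.4, No.6 and No.8, 2.53 compared with 2.51. Both sums were thus highest in No.2 and lowest of the even-numbered samples in No.6. In the odd-numbered samples the 8 others had 86.2 CPM in No.3 and 32.4 to 37.7 CPM elsewhere, and their lowest even-numbered sum was 1.18 times the highest odd-numbered one, compared with 2.14 times for the chosen. Of the 8, 2 overlapped, among them M_dom_rep_c30731 with 40.6 and 24.2 CPM in No.3 and No.8. The code GL25953 was found on 11 contigs, of which 8 were in the list, at ranks 120 to 185. These 8 lay higher in every even-numbered sample by the choice itself. The 3 others did so too, compared with 9.14% of all annotated contigs.

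**Figure D4:**
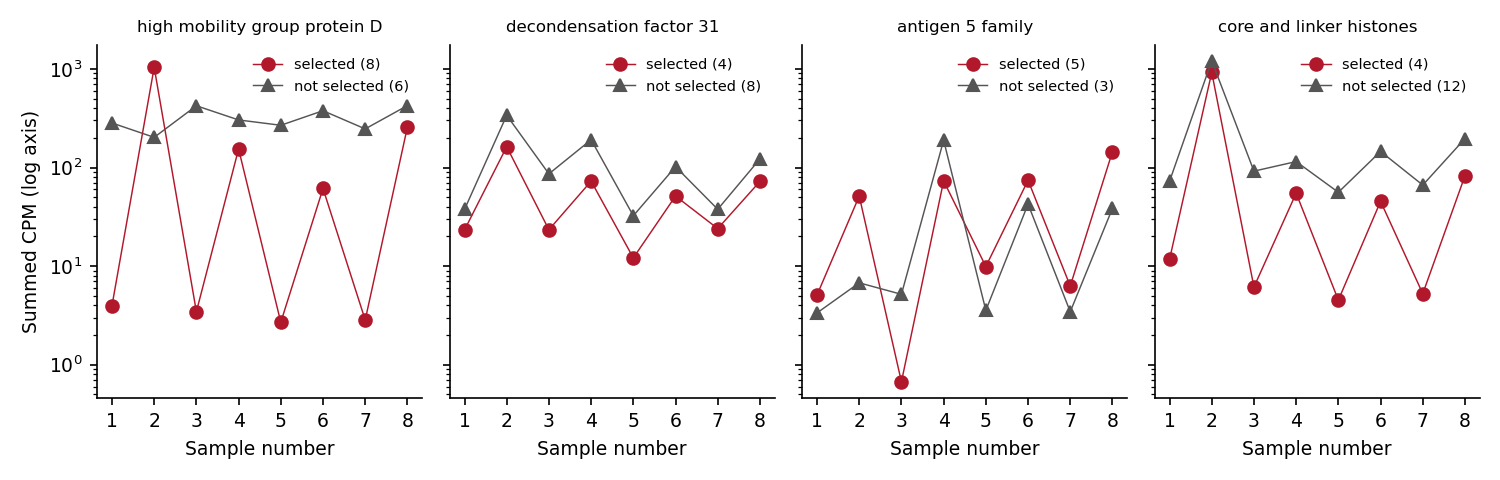
Summed CPM on a log axis in the 8 samples for the selected contigs (red circles) and the contigs not selected (grey triangles) of 4 names, with the number of contigs in brackets. For HMG-D the grey line is lowest and the red line highest in No.2, whereas both lines peak in No.2 for decondensation factor 31 and the histones.

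The 200 contigs differed widely in their level in No.2. Its ratio to the geometric mean of No.4, No.6 and No.8 had a median of 2.64 over the list and 1.08 over all ranked contigs. It was at least 4 for 68 contigs (34%), compared with 2.71% of all ranked contigs, and went from 0.175 to 22. The order No.2, No.8, No.4, No.6 was shown by 90 contigs and the order No.2, No.4, No.8, No.6 by 47, compared with 10.9% and 9.98% of all ranked contigs. The ratio of highest to lowest even-numbered level had a median of 4.23 over the list and 2.28 over all ranked contigs. The ranking used the lowest of these 4 levels and left the highest open, and the shares are given as a description. No.4 was the highest even-numbered sample for 24 contigs, No.8 for 17 and No.6 for 5.

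**Figure D5:**
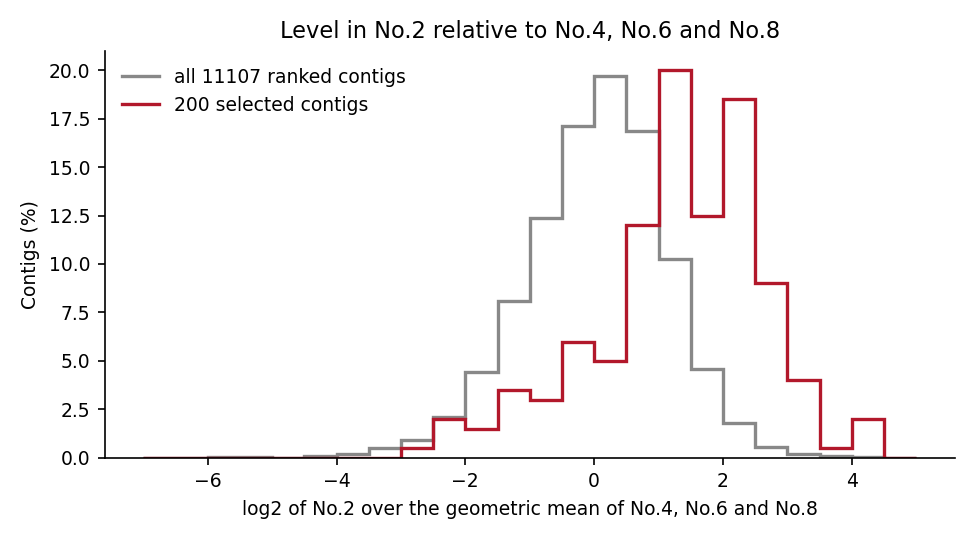
Percent of contigs by the log2 ratio of No.2 to the geometric mean of No.4, No.6 and No.8, for the 200 selected contigs (red) and all 11107 ranked contigs (grey), in steps of 0.5. The red line lies to the right, with medians of 1.40 and 0.10, and keeps a tail below 0.

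A smaller set of 17 contigs had its lowest even-numbered level in No.2. It was set apart after its values were seen. It opened with M_dom_c2890 (GF21976, rank 7), M_dom_rep_c20684 (GA20580, rank 9) and M_dom_c22593 (rank 12, matched to an *Aspergillus* protein). The clearest cases were M_dom_c20561 (GG18115, rank 26), with 32.5, 150, 190 and 223 CPM in No.2, No.4, No.6 and No.8, and M_dom_c4531 (GG21462, rank 33), with 36.7, 91.2, 163 and 232 CPM in No.2, No.4, No.6 and No.8. In the odd-numbered samples M_dom_c20561 had counts only in No.5, at 5 CPM, and M_dom_c4531 had 6.92 CPM in No.5 but no more than 0.124 CPM elsewhere. No.5 was the highest odd-numbered sample for 9 of the 17 contigs and for 40 of the other 183. For 7 of the 9 the remaining odd-numbered samples were under 0.5 CPM. Among these 7, M_dom_c2890 had 3 counts in each of No.3, No.5 and No.7, so No.5 did not stand out there.

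Yolk proteins, barred from the ranking by name, were set beside this set because No.2 and No.5 were also the samples in question there. Contigs named for yolk or vitellogenin, 31 in all, summed to 20.2, 7.76, 126 and 29.6 CPM in No.1, No.3, No.5 and No.7, and 207, 2811, 1827 and 3935 CPM in No.2, No.4, No.6 and No.8. No.2 was again the lowest even-numbered and No.5 the highest odd-numbered sample. The 7 contigs named for chorion or vitelline membrane, made late in egg formation, summed to 397, 27.0, 1.79 and 0.345 CPM in No.8, No.6, No.4 and No.2. The most abundant yolk sample and the most abundant chorion sample was No.8, while *bicoid*, *nanos*, *deadhead* and *plutonium* were highest in No.2. The part of either set of contigs in the levels of the 200 was not tested.

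Proteins named antigen 5, a family of secreted cysteine-rich proteins known from insect saliva and venom, gave 5 of the 200 contigs at ranks 32, 47, 86, 123 and 161. The one ranked highest, M_dom_rep_c14665, had 11.6, 28.8, 39.8 and 38.8 CPM in No.2, No.4, No.6 and No.8, with 1.83 CPM in No.5 and no counts in No.1, No.3 and No.7. The 5 contigs summed to 51.3, 73.2, 74.2 and 145 CPM in No.2, No.4, No.6 and No.8, and to 0.671 to 9.9 CPM in the odd-numbered samples. Of the 6 contigs of the name with a mean of at least 2 CPM, these 5 lay higher in every even-numbered sample by the choice itself. The remaining contig did so too, compared with 9.14% of all annotated contigs. Outside the list, M_dom_rep_c19181 had 189 and 6.49 CPM in No.4 and No.2, compared with 4.98 CPM in No.3.

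The gene code GA20580 was split between profiles in another way. The chosen contig, M_dom_rep_c20684, had 12.4, 35.3, 17.3 and 32 CPM in No.2, No.4, No.6 and No.8. The 3 contigs not chosen summed to 51.4, 3.21, 1.27 and 28.8 CPM in No.2, No.4, No.6 and No.8. All 4 had almost no counts in the odd-numbered samples, with sums of at most 0.769 CPM.

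Ecdysteroid synthesis was represented by *neverland*, an oxygenase that takes the first step from cholesterol towards the moulting hormone, which adult females make in the ovary. The contig (M_dom_c3601, 1078 bp, rank 5) had 0, 0.0958, 0 and 0 CPM in No.1, No.3, No.5 and No.7, and 13.9, 10.8, 13.7 and 16 CPM in No.2, No.4, No.6 and No.8. A single read fell in an odd-numbered sample, No.3, where the 95% Poisson interval reaches 0.534 CPM. It differed from *bicoid*, *nanos*, *deadhead* and *plutonium* in its similar level across the even-numbered samples, with a ratio of highest to lowest of 1.49. This was among the 5 smallest ratios of the list, with M_dom_rep_c16516 at 1.26, M_dom_rep_c33533, an RNA-binding protein, at 1.38, M_dom_rep_c19028 (GE25135) at 1.38 and M_dom_c4377 (GG22568) at 1.57.

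Names of fat body, lipid and sterol metabolism gave 4 contigs. The fatty acid-binding protein FABP, a carrier of fatty acids in the cell, had a contig (M_dom_c1726, rank 44) with 44.1, 22.3, 12.3 and 25.8 CPM in No.2, No.4, No.6 and No.8, and 0.558 to 2.4 CPM in the odd-numbered samples. A second FABP contig, M_dom_rep_c6237, was higher in every sample, from 65.6 CPM in No.1 to 297 CPM in No.6, and overlapped. Acyl-CoA reductase, an enzyme of fatty alcohol synthesis (M_dom_c829, rank 164), had 39.4, 127, 81.1 and 96.4 CPM in No.2, No.4, No.6 and No.8, with 9.99 to 22.1 CPM in the odd-numbered samples. The cytochrome P450 CYP4G2v1, of a family that makes cuticular hydrocarbons, gave M_dom_rep_c12426 (rank 103), with 21.3 CPM in No.4 and 4.14 to 6.47 CPM in the other even-numbered samples, and M_dom_rep_c11387 (rank 155), with 262 and 114 CPM in No.4 and No.8. The 7 CYP4G2v1 contigs outside the list summed to 273 to 745 CPM in the odd-numbered and 1035 to 2955 CPM in the even-numbered samples. Of 6 of them with a mean of at least 2 CPM, 5 lay higher in every even-numbered sample, compared with 9.14% of all annotated contigs. Among the 4 contigs in the list, the lowest even-numbered level was 5.11 times the highest odd-numbered level for FABP, and 1.78 to 2.83 times for the other 3. Of 144 contigs on this list, 17 (11.8%) lay higher in every even-numbered sample and 10 (6.94%) lower, close to the 9.14% and 6% of all annotated contigs. With TMM totals 18 lay higher and 18 lower, while 11.5% of all annotated contigs lay higher and 6.65% lower. The closeness on the lower side thus held for total counts and not for TMM.

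The most abundant contigs of the list stood low in the ranking. The 10 with the largest summed level in the even-numbered samples were M_dom_c22112 (matched to a *Daphnia* protein), M_dom_rep_c6440 (*sta*), M_dom_rep_c5517 (GF18798), M_dom_rep_c6796 (GA11728), M_dom_rep_c6575 (RE28480p), M_dom_rep_c6468 (40S ribosomal protein S20), M_dom_rep_c29108 (ribosomal protein S24), M_dom_rep_c5650 (AGAP004948-PA), M_dom_c451 and M_dom_c441 (GH21765). Of these, M_dom_rep_c5650 alone was among the 100 ranked highest, at rank 49, with 317, 1482, 296 and 815 CPM in No.2, No.4, No.6 and No.8. The *sta* contig, a ribosomal protein of the small subunit, had 839, 1713, 1457 and 1649 CPM in No.1, No.3, No.5 and No.7, and 3148, 5083, 4051 and 3585 CPM in No.2, No.4, No.6 and No.8. Its lowest even-numbered level was 1.84 times its highest odd-numbered level.

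Ribosomal proteins as a name were higher in the even-numbered samples well beyond the 5 contigs in the list. Of 106 such contigs with a mean of at least 2 CPM, 67 (63.2%) lay higher in every even-numbered sample and 1 lower, compared with 9.14% and 6% of all annotated contigs. Their summed level was 28568 to 43064 CPM in the odd-numbered and 63976 to 125146 CPM in the even-numbered samples. The difference was smaller than for *bicoid*, *nanos*, *deadhead* and *plutonium* but was carried by far more reads.

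Other searched lists gave few contigs. Counted over contigs with a mean of at least 2 CPM as above, RNA processing and translation, with 155, had 45 (29%) higher, 6 lower and 3 in the list, compared with 9.14% higher and 6% lower of all annotated contigs. The 3 were 2 ATP-dependent RNA helicases and an RNA-binding protein. Nuclear pore and transport had 33 contigs, 5 (15.2%) higher, none lower and 1 in the list (nucleoporin 160 kDa). With TMM totals 10 of them lay higher, compared with 11.5% of all annotated contigs. Transcription factors had 106 contigs, 8 (7.55%) higher, 6 (5.66%) lower and 1 in the list, near the shares of all contigs. The ubiquitin system had 111 contigs, 20 (18%) higher and none lower, and proteases and inhibitors had 105 contigs, 7 (6.67%) higher and none lower. Signalling kinases and phosphatases had 93 contigs, 7 (7.53%) higher and 6 (6.45%) lower, again near the shares of all contigs. None of these 3 lists had a contig among the 200.

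Other described proteins of the list, named after their values were seen, act on chromatin, other proteins or small molecules. TIP49, a helicase of chromatin remodelling complexes (M_dom_rep_c6663), had 22.3, 15, 12.1 and 13.2 CPM in No.2, No.4, No.6 and No.8, with 1.35 to 5.56 CPM in the odd-numbered samples. CAF1/NURF55, a histone-binding subunit (M_dom_rep_c15138), had 17.1, 6.23, 4.77 and 4.37 CPM in the same even-numbered samples, with 0.865 to 2.01 CPM in the odd-numbered ones. PRMT1, which methylates arginines of histones and RNA-binding proteins (M_dom_rep_c5692), had 83.9, 34.3, 23.9 and 35 CPM, with 8.85 to 13.7 CPM in the odd-numbered samples. A glutathione S-transferase, a detoxification enzyme (M_dom_rep_c6311), had 194, 118, 123 and 128 CPM, with 40.1 to 68.7 CPM in the odd-numbered samples. All 4 were highest in No.2.

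The remaining lists had no contig among the 200. Neuron and muscle names, with 93 contigs, had none higher and 15 (16.1%) lower in every even-numbered sample, compared with 9.14% and 6% of all annotated contigs. Cytoskeleton and motors had 146 contigs, 3 (2.05%) higher and 4 (2.74%) lower. Transposons had 32 contigs, none higher and 2 (6.25%) lower, the latter near the share of all contigs. The 4 contigs of the male germline list all overlapped. Contigs named for axoneme-associated proteins, which in *Drosophila* belong to sperm tails, summed to 598, 751, 831 and 245 CPM in No.1, No.3, No.5 and No.7, and 194, 283, 631 and 229 CPM in No.2, No.4, No.6 and No.8. They were thus present in every sample, with No.2 lowest, and No.6 lay above No.1 and No.7.

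In length the 200 contigs were like the other ranked contigs, with a median of 897 bp compared with 886 bp. By matched species 60.5% had their annotation from *Drosophila* and 15% from *Glossina*, compared with 49.9% and 13.4% of the ranked contigs. Matches outside flies and mosquitoes were found for 29 contigs, or 14.5% (95% Wilson interval 10.3% to 20%), compared with 28.8% of the ranked contigs. Of the 10 highest ranks 3 were such matches. M_dom_rep_c13918 (rank 2) was matched to a *Dictyostelium* protein and had 28.2, 67, 18.7 and 37.2 CPM in No.2, No.4, No.6 and No.8, with 6 counts in all odd-numbered samples. The highest ranking contig of all, M_dom_rep_c5511 (GJ19117, 907 bp), had 0.248, 0.287, 1.06 and 0.258 CPM in No.1, No.3, No.5 and No.7, and 439, 79.9, 38.7 and 132 CPM in No.2, No.4, No.6 and No.8.

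Most of the list had no descriptive name. Of the 200 contigs 114 were annotated by a gene code alone, 28 as hypothetical, unnamed or predicted proteins and 58 with a description. The 200 carried 172 different annotations, and 16 names stood on more than 1 contig and covered 48 contigs. Contigs with the annotation of a chosen contig but outside the list numbered 576 with a mean of at least 2 CPM, and 49 (8.51%) of them lay higher in every even-numbered sample, compared with 9.14% of all annotated contigs. A single code, CLF_100574, stood on 450 of them, with 10 higher and 60 lower. Of the 126 others, 39 (31%) lay higher and 8 lower. Contigs with the same annotation may share a transcript, so these shares count matched pieces and not genes.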

How the data were processed

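A table of reads counted per contig in 8 samples of 791spin was used. The authors deposited whole-number counts per contig, not normalized, beside a scaled signal with the same total in every sample, which was not used, the contig length in bp (an other measurement of the deposited table) and a BLASTX annotation. The contigs were assembled by the authors with Newbler and MIRA from 454 reads. The sources used here name neither the reads counted nor the counting program. Contig sequences and genome positions were not used here.

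CPM were computed on the total count of each sample. The members and the lists of names were chosen with earlier results of these data known. Names were searched in the annotation text with 16 lists, and 5 further lists were added after the values were seen. Contigs named in the text are the 20 ranked highest, the 10 with the largest summed level in No.2, No.4, No.6 and No.8, the 5 with the largest and 5 with the smallest ratio among these, the 3 on either side of the end of the list and all chosen contigs of the oocyte, follicle, cell cycle, replication, lipid and male germline lists. Others were named after their values were seen. Descriptive names are annotations other than a gene code, hypothetical, unnamed or predicted protein. Since the labels give 1 condition, no groups were compared and no test was made. The code of the ranking was checked on simulated counts with planted differences and counting error only. That check says nothing about the contigs of the list. Alternatives concerned the floor, the offset, the totals (edgeR 4.0.16 TMM and DESeq2 1.42.0 size factors, in R 4.3.3), the length of the list and each sample left out. Python 3.11.15 was used elsewhere, with pandas 2.3.3, numpy 2.4.6, matplotlib 3.10.9 and scipy 1.17.1.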

Additional observations from a re-analysis of the deposited data

Results flagged for a closer look

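For the contigs named by rule, the sum over the 200 and 7 marker sums, the highest or lowest of the 8 samples was set against its nearest neighbour, and a gap beyond Dixon's 95% critical value for 8 values, as a share of the whole range, was taken as standing apart. For 8 values drawn alike, chance gives this in about 5% of sets. That rate does not apply to these contigs, which were chosen on the same values to have 4 low and 4 high samples, and some of which were named for their spread among the even-numbered samples. The gaps are given as a description. Of 54 named contigs, 26 had such a gap, 23 of them with No.2 as the highest sample.

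The values of No.2 were 439 CPM for M_dom_rep_c5511, 149 CPM for M_dom_rep_c11851, 142 CPM for M_dom_rep_c5464 and 27.8 CPM for M_dom_rep_c12401. On the HMG-D contigs they were 241 CPM for M_dom_rep_c17755, 123 CPM for M_dom_rep_c14427, 73.3 CPM for M_dom_rep_c18697, 299.5 CPM for M_dom_rep_c15723 and 174 CPM for M_dom_rep_c16784. Among the maternal and division genes they were 42.7 CPM for *bicoid*, 59.7 CPM for *deadhead*, 73.2 CPM for *nanos*, 113 CPM for dUTPase, 66.5 CPM for MCM, 67.3 CPM for replication protein A and 31.2 CPM for *zw10*. On the histones they were 135 CPM for M_dom_rep_c34752, 230 CPM for M_dom_rep_c17026, 111 CPM for H3.3 and 444 CPM for H2A-like. The last 3 contigs of the list had 49.4 CPM, 36.9 CPM and 42.6 CPM in No.2.

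No.4 stood apart as the highest sample with 68.2 CPM for M_dom_rep_c5581, 64.8 CPM for M_dom_c2890 and 21.3 CPM for the CYP4G2v1 contig M_dom_rep_c12426. Outside the list, the chorion and vitelline membrane contigs had 397 CPM in No.8 against 27.0 CPM in the next sample. The paramyosin contigs, of muscle, reached 371 CPM in No.3 against 179 CPM in No.4. The sums of troponin and tropomyosin, also of muscle, did not stand apart by this rule and peaked in No.5. For troponin, No.5 was at 1547 CPM and No.3 at 470 CPM. For tropomyosin, No.5 was at 461 CPM and No.3 at 223 CPM.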

How the results depend on the processing

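No paired analysis was possible because all samples carry 1 label and no groups were compared. The list depended on its own settings. Of the 200 contigs, 122 remained with a floor of 5 CPM, since only 122 had 5 CPM in every even-numbered sample, 122 remained with an offset of 2 CPM, and 131 when means were divided in place of the lowest and highest levels. With single samples left out, 122 to 188 remained, the fewest without No.6 and 148 without No.8. With other floors, a smaller offset, other totals, 1 contig per annotation, contigs without annotation or the barred names let in, 172 to 192 remained. Under TMM, DESeq2 and totals without the 10 most counted contigs, all 200 still lay higher in every even-numbered sample, 153 to 155 were highest in No.2, and the summed level of the lowest even-numbered sample was 2.3 to 2.37 times that of the highest odd-numbered, compared with 2.45. TMM and DESeq2 changed the totals by factors of 0.834 in No.5 to 1.23 in No.3. These 3 scalings were chosen for the name lists after seeing the data. Under them, 64 to 74 ribosomal protein contigs lay higher and 1 or 2 lower in every even-numbered sample. For neuron and muscle, 16 or 17 contigs lay lower and at most 1 higher. The share of all annotated contigs was 8.21% to 11.5% lying higher and 6.65% to 7.37% lying lower. For histones and chromatin 23 to 39 lay higher. Of 42 list counts (21 lists, higher and lower), 9 moved by over 1.5 times or from 0 under at least 1 scaling. Besides the ribosomal and the neuron and muscle counts above, these were lipid contigs lying lower (10, with TMM 18 and with DESeq2 17), nuclear pore higher (5, with 10 and 9), transposons lower (2, with 4 and 4), ubiquitin lower (0, with 3 and 3, and 2 without the most counted contigs), follicle and eggshell lower (0, with 2 and 1), cytoskeleton higher (3, with 5 and 5, and 1 without the most counted contigs) and proteases higher (7, and 4 without the most counted contigs). The share with a descriptive name, 29%, was 37.3% in a list of 400, 42% with an offset of 2 CPM and 37% with a floor of 5 CPM, and the cause was not tested. The remaining alternatives for the list of 200, including one added after seeing the data (a ranking value of at least 3), stayed within the interval or spread of the value reported. With 1 condition and no stated replicates, differences between samples are those of these 8 columns. The level of 3 counts lies between 0.186 CPM in No.1 and 0.292 CPM in No.6.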
